A study of Mus musculus with 4 samples.

Results

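A set of 10 genes of cell polarity and asymmetric cell division (ACD) were followed in mouse embryonic stem cells (mESCs) with and without Haspin, the kinase that phosphorylates histone H3 at threonine 3 in mitosis. The 10 genes were chosen by symbol from the 55401 genes of the deposited table: *Pard3*, *Pard6b* and *Prkci* of the Par complex, *Numb* and *Numbl*, *Llgl1*, *Scrib* and *Dlg1* of the Scribble group, and *Gpsm2* and *Numa1* of the spindle orientation machinery. Each symbol matched 1 row. None of the 10 genes was called between Haspin-KO and WT cells at an adjusted p under 0.05, which 2.50% of all tested genes met. Every 95% interval of a fold change of the 10 genes lay between 0.629 and 1.28. Intervals inside a 2-fold change were found for 77.1% of all tested genes. *Numbl* had the largest difference, with Haspin-KO at 0.743 of the WT level.

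RNA was sequenced from 2 libraries of WT E14 cells, a mouse embryonic stem cell line, and from 2 libraries of Haspin-KO E14 cells. Per the general culture methods of the study, E14 cells grew in serum medium with LIF and 2i (the MEK inhibitor PD0325901 and the GSK3 inhibitor CHIR99021). The labels name no treatment of these libraries. The ACD assay of the study moved the cells to N2B27 medium, and the labels name no such step for these libraries. Haspin-KO lines were made with CRISPR/Cas9 and a pair of gRNAs and picked as single clones that lacked H3T3ph, and the labels do not say which line each library came from. The lines were maintained on mouse embryonic fibroblasts or on gelatin, and the substrate of each library is not given. Nothing says that the 2 libraries of a group came from separate cultures, so p-values measure the spread between these libraries.

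Asymmetric division needs a cortical axis, a spindle aligned to it, and determinants that reach only 1 daughter. In epithelia and in fly neuroblasts, the Par complex of PAR3, PAR6 and atypical protein kinase C (aPKC) marks the apical cortex and excludes the Scribble group of SCRIB, DLG and LGL from it. NUMB, an endocytic adaptor that restrains Notch receptors, is sorted to 1 daughter, and GPSM2 (LGN) ties NUMA1 and dynein at the cortex to the spindle poles.

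The libraries held between 14207828 and 21834847 counted reads, with WT deeper on average by a factor of 1.37. *Haspin*, the targeted gene, had 40.1 and 35.7 CPM (read counts scaled to a common library size after TMM normalization) in the WT libraries and 10.4 and 14.6 in the Haspin-KO libraries (edgeR adjusted p = 0.00154), lower in both Haspin-KO libraries than in either WT library. All 10 mESC markers looked up were measured, with *Pou5f1* at 466.0 FPKM in WT and *Tfcp2l1* at the highest count, and 0 of 10 passed the test. Of these markers 8 had values below 0, and 3 were lower at an unadjusted p under 0.05 in edgeR (30.0% against 20.8% of all tested genes). Of 18 tested fibroblast markers, 13 were called lower in Haspin-KO, among them *Thbs1*, whereas *Col5a1* was not called (adjusted p = 0.305). The summed level of the 23 listed genes was 446.7 and 330.2 CPM in WT against 82.3 and 76.6 CPM in Haspin-KO, and *Lox* (1215 and 657 reads in WT), *Postn* (171 and 77) and *S100a4* (22 and 9) were at 0 in both Haspin-KO libraries. *Dcn* and *Twist2*, with at most 4 reads in a WT library, were also at 0 there, and *Lum* was at 0 in all 4 libraries. Of 13 tested 2-cell-like markers, 6 were called higher, with *Zscan4d* and *Zscan4a*, near-identical copies among which reads may be split, the most counted, and the 15 listed genes summed to 86.9 and 80.3 CPM in WT against 219.4 and 165.2 in Haspin-KO. Of 11 tested germ layer markers, 0 passed the test, with *Nes* and *Sox1* the most counted. At an unadjusted p under 0.05, edgeR gave 2 of them higher and 2 lower (36.4%).

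All 10 genes passed the filter on low counts and carried between 313 and 5247 reads in each library. Among all 15580 genes tested, 2.50% had an adjusted p under 0.05 in edgeR's quasi-likelihood test, 0.988% on the higher and 1.51% on the lower side in Haspin-KO. Of the 10 polarity genes 0 did, and with a fold change over 2 asked as well, which 0.828% of all genes met, the count was also 0. At an unadjusted p under 0.05, edgeR gave 3 of the 10 (*Numbl* lower, *Prkci* and *Dlg1* higher) against 20.8% of all genes, DESeq2 gave 1, and limma on log2(FPKM + 0.1) gave 3. After adjustment DESeq2, which called 3.63% of the genes it tested, and limma also called 0 of the 10. The median log2 fold change was -0.10 over the 10 genes, with 3 values above and 7 below 0, while 49.4% of all tested genes had a value above 0.

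In 9 of the 10 genes the CPM of the groups did not overlap, 3 with Haspin-KO higher and 6 with Haspin-KO lower. Among all tested genes the groups did not overlap in 52.3%, with 25.3% higher and 26.9% lower. The log2 ratio between the replicates of a group reached 0.27 at most among the 10 genes, for *Gpsm2* in Haspin-KO.

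**Figure D1:**
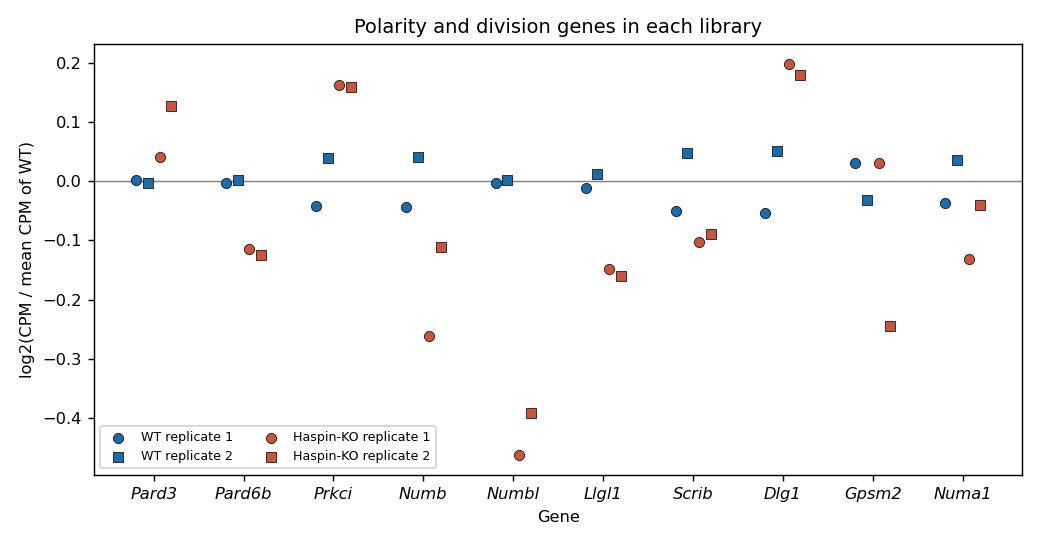
Normalized count of each gene in each library, as log2 of its CPM over the mean CPM of the WT libraries (vertical axis), for the 10 genes (horizontal axis); blue marks WT, red marks Haspin-KO, circles replicate 1 and squares replicate 2. *Numbl* stands lowest in both Haspin-KO libraries, *Prkci* and *Dlg1* stand above WT, and only *Gpsm2* overlaps.

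The Par complex genes showed no shared direction. *Pard3* (ENSMUSG00000025812, chr8:127063893-127612286 of mm10, plus strand) encodes the scaffold PAR3, which recruits the other subunits to the cortex. It had 103.4 and 103.1 CPM in WT and 106.2 and 112.8 CPM in Haspin-KO. Its log2 fold change was 0.08 (standard error 0.08, 95% interval from -0.09 to 0.26, edgeR adjusted p = 0.570), the smaller of the Haspin-KO values being close to WT.

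*Pard6b* (ENSMUSG00000044641, chr2:168081004-168101203, plus strand) encodes a PAR6 adaptor that links CDC42 to aPKC. Its CPM was 30.8 and 30.9 in WT and 28.5 and 28.3 in Haspin-KO, so the replicates lay very near each other and the groups stood apart by a small step. Its log2 fold change was -0.12 (standard error 0.10, 95% interval from -0.34 to 0.11, edgeR adjusted p = 0.545).

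*Prkci* (ENSMUSG00000037643, chr3:30995747-31052959, plus strand) encodes aPKC iota, the kinase of the complex, which phosphorylates LGL and NUMB. It was counted at 240.2 and 254.2 CPM in WT and at 276.9 and 276.0 CPM in Haspin-KO, with both Haspin-KO libraries above both WT libraries. This was a log2 fold change of 0.16 (standard error 0.07, 95% interval from 0.01 to 0.32, unadjusted p = 0.0434, edgeR adjusted p = 0.225).

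*Numb* and *Numbl* encode related adaptors and both had lower values in Haspin-KO. *Numb* (ENSMUSG00000021224, chr12:83794034-83921934, minus strand) had 34.8 and 36.9 CPM in WT and 29.9 and 33.2 CPM in Haspin-KO. The highest Haspin-KO library came close to the lowest WT library, and the log2 fold change was -0.18 (standard error 0.10, 95% interval from -0.42 to 0.05, edgeR adjusted p = 0.346).

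*Numbl* (ENSMUSG00000063160, chr7:27258433-27282144, plus strand), which encodes Numb-like, had 30.0 and 30.1 CPM in WT and 21.8 and 22.9 CPM in Haspin-KO. These values rest on 656 and 522 reads in WT and on 313 and 327 reads in Haspin-KO, and the gap between the groups was many times the gap within either. The log2 fold change was -0.43 (standard error 0.11, 95% interval from -0.67 to -0.19, unadjusted p = 0.00294, edgeR adjusted p = 0.0711), which missed the threshold. Without a filter on low counts the adjusted p of *Numbl* was 0.0260, and with DESeq2 it was 0.139. With each library left out in turn its log2 fold change stayed between -0.47 and -0.39. The summed FPKM of *Numb* and *Numbl* was 12.6 ± 0.325 in WT and 10.6 ± 0.523 in Haspin-KO (SD, n = 2 libraries each).

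The Scribble group genes went both ways. *Llgl1* (ENSMUSG00000020536, chr11:60699723-60714186, plus strand) encodes LGL1, the substrate that aPKC displaces from the apical cortex. It had 116.3 and 118.2 CPM in WT and 105.8 and 104.9 CPM in Haspin-KO, with tight replicates in both groups. Its log2 fold change was -0.15 (standard error 0.07, 95% interval from -0.32 to 0.01, edgeR adjusted p = 0.272).

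*Scrib* (ENSMUSG00000022568, chr15:76047158-76069784, minus strand) encodes the basolateral scaffold SCRIB. Its CPM was 121.9 and 130.4 in WT and 117.5 and 118.6 in Haspin-KO, and the WT libraries differed from each other by more than the nearer of them differed from Haspin-KO. This gave a log2 fold change of -0.10 (standard error 0.08, 95% interval from -0.27 to 0.08, edgeR adjusted p = 0.510).

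*Dlg1* (ENSMUSG00000022770, chr16:31663443-31875129, plus strand) encodes a membrane-associated guanylate kinase that binds GPSM2 at the lateral cortex. It was at 136.8 and 147.0 CPM in WT and at 162.9 and 160.7 CPM in Haspin-KO, the Haspin-KO libraries lying above both WT libraries. In the fit its log2 fold change was 0.19 (standard error 0.07, 95% interval from 0.02 to 0.36, unadjusted p = 0.0306, edgeR adjusted p = 0.194).

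The genes that couple the cortex to the spindle had small differences with wide or touching ranges. *Gpsm2* (ENSMUSG00000027883, chr3:108678638-108722309, minus strand) had 35.6 and 34.1 CPM in WT and 35.6 and 29.4 CPM in Haspin-KO, so that replicate 1 of Haspin-KO matched WT and replicate 2 lay lower. The log2 fold change was -0.10 (standard error 0.12, 95% interval from -0.36 to 0.16, edgeR adjusted p = 0.660), and without Haspin-KO replicate 2 it turned to 0.03. *Numa1* (ENSMUSG00000066306, chr7:101934111-102014964, plus strand), which encodes the dynein-binding spindle pole protein NUMA1, had 226.6 and 238.2 CPM in WT and 212.3 and 226.0 CPM in Haspin-KO. Its log2 fold change was -0.08 (standard error 0.07, 95% interval from -0.25 to 0.08, edgeR adjusted p = 0.543), and the higher Haspin-KO value all but met the lower WT value.

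**Figure D2:**
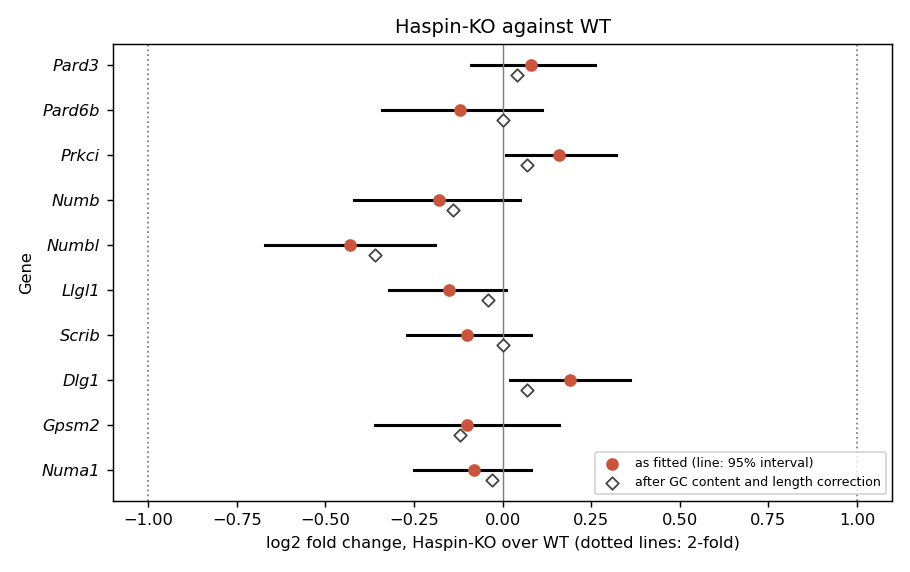
Log2 fold change of Haspin-KO over WT (horizontal axis) for the 10 genes (vertical axis), with the fitted value as a red circle, its 95% interval as a line and the value corrected for GC content and length as an open diamond. All intervals lie between -0.67 and 0.36, inside the dotted lines at a 2-fold change, and the diamonds of *Prkci* and *Dlg1* lie at 0.07.

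No interval of the 10 genes reached a 2-fold change in either direction, and this held for 77.1% of all tested genes. The interval of *Numbl* lay below 0 and those of *Prkci* and *Dlg1* above 0, before any adjustment for the number of genes tested.

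For several of the 10 genes, but not all, the direction of the value went with GC content. Across 15568 tested genes with a transcript sequence, the log2 fold change correlated with the GC content of the annotated transcripts (Pearson's r = -0.228, a description across genes from the same 4 libraries). The median log2 fold change was 0.15 in the genes with up to 45.5% GC and -0.13 in the genes with 54.7% GC or more. *Prkci* (44.4%) and *Dlg1* (44.6%) had the lowest GC content of the 10 genes and the highest fold changes. *Scrib* (60.9%), *Numbl* (57.7%), *Llgl1* (57.7%) and *Numa1* (55.1%) had the highest GC content and values below 0. The genes between them were mixed: *Gpsm2* (47.3%), *Numb* (50.3%) and *Pard6b* (53.8%) had values below 0 and *Pard3* (51.5%) a value above 0.

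With values corrected for GC content and length, an alternative chosen after the data were examined, the log2 fold change was 0.07 for *Prkci*, 0.07 for *Dlg1*, -0.04 for *Llgl1*, -0.03 for *Numa1* and 0.00 for *Scrib*. *Numbl* kept most of its difference, at -0.36 (edgeR adjusted p = 0.152), *Numb* was at -0.14 and *Gpsm2* at -0.12. *Pard3* was at 0.04 and *Pard6b* at -0.00. The median over the 10 genes went from -0.10 to -0.02. The correction takes the trend along GC content and length out of each library, including any part that differs between the groups. A shift of genes at low or high GC content was thus built in. Whether the trend is technical or biological was not tested.

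**Figure D3:**
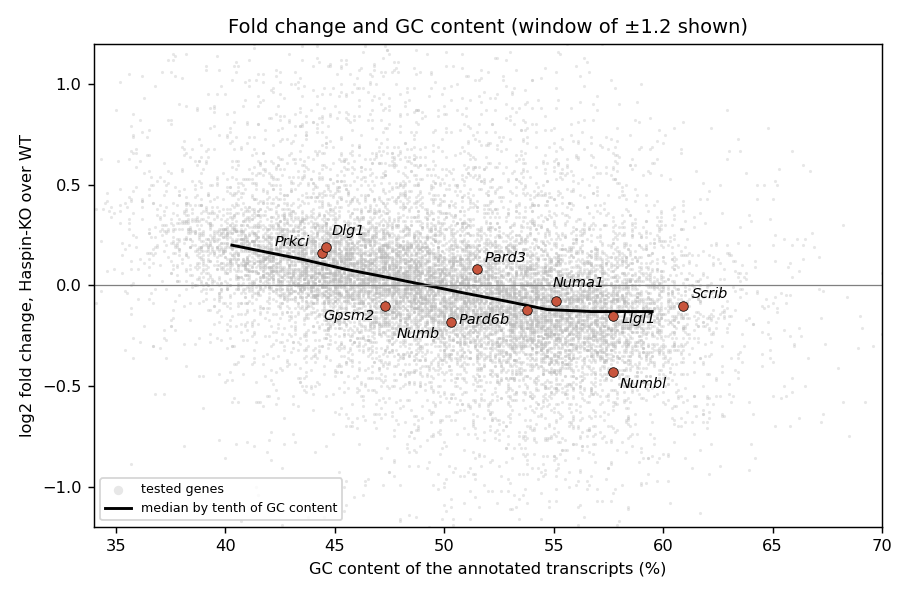
Log2 fold change of Haspin-KO over WT (vertical axis, limited to ±1.2) against the GC content of the annotated transcripts in percent (horizontal axis) for all tested genes (grey) and the 10 genes (red), with the median by bin of GC content as a line. The line runs from positive values at low to negative values at high GC content, *Prkci* and *Dlg1* lie near its upper end, and *Numbl* lies below it.

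Compared per length in FPKM over all 4 libraries, *Prkci* was the most abundant of the 10 genes at 47.1 ± 3.29 FPKM (SD, n = 4 libraries), at percentile 93.0 of the tested genes. *Numa1* (28.5 ± 1.15), *Llgl1* (22.8 ± 1.40), *Scrib* (18.9 ± 0.849) and *Dlg1* (14.1 ± 1.17) followed in FPKM, each with a range over libraries that did not overlap the next. *Pard6b* (8.70 ± 0.410), *Gpsm2* (8.60 ± 0.812) and *Numb* (8.59 ± 0.707) could not be ordered in FPKM, because their ranges overlapped. *Pard3* was at 7.15 ± 0.280 FPKM, and its range (6.90 to 7.51) overlapped that of *Gpsm2* (7.44 to 9.20). *Numbl* was the least abundant at 3.02 ± 0.509 FPKM, 15.6 times below *Prkci* and at percentile 40.2. In FPKM, *Prkci* thus stood at 5.41 times the level of *Pard6b* and 6.59 times that of *Pard3*. These FPKM divide by all annotated exonic bases of a gene (5551 for *Prkci*, 3399 for *Pard6b*, 14849 for *Pard3*). The length of the transcripts present was not measured, so ratios between genes, paralogs included, depend on that choice. Summed over paralogs, *Prkci* and *Prkcz* were at 48.6 FPKM in WT and 53.7 FPKM in Haspin-KO. *Pard6a*, *Pard6b* and *Pard6g* together were at 21.6 FPKM in WT and 19.8 FPKM in Haspin-KO.

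Some families had a dominant member. *Pard3* made up 99.0% to 99.6% of the summed FPKM of *Pard3* and *Pard3b* in the 4 libraries, *Gpsm2* 92.9% to 94.3% of that of *Gpsm2* and *Gpsm1*, and *Prkci* 91.1% to 92.8% of that of *Prkci* and *Prkcz*. *Numb* held 72.0% to 76.3% beside *Numbl*. The Lgl genes were nearer to each other, with *Llgl1* at 36.3% to 39.8% and *Llgl2* the more abundant in every library.

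The PAR6 genes were shared among 3 paralogs. *Pard6b* held 40.4% to 44.0% of their summed FPKM in every library. *Pard6a* held 31.9% ± 1.30 in WT and 25.4% ± 4.59 in Haspin-KO, and *Pard6g* held 26.3% ± 0.805 in WT and 32.4% ± 2.09 in Haspin-KO (SD, n = 2 libraries each). In the test of each gene, *Pard6a* had a log2 fold change of -0.45 (standard error 0.19, unadjusted p = 0.0384, edgeR adjusted p = 0.214) and *Pard6g* one of 0.17 (standard error 0.12, edgeR adjusted p = 0.450). *Pard6a* was at 7.18 and 6.63 FPKM in WT and at 4.27 and 5.82 FPKM in Haspin-KO, the Haspin-KO libraries differing from each other by more than the WT libraries did.

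Among the Dlg genes, *Dlg5* (43.3% to 47.1%) and *Dlg1* (40.3% to 43.1%) held similar shares of the FPKM, *Dlg3* held 10.5% to 15.2% and *Dlg4* under 1%. *Dlg2*, with at most 1 read per library, was not tested. Of the 10 paralogs looked up, 9 were tested and none was called in edgeR, with adjusted p from 0.214 for *Pard6a* to 0.946 for *Gpsm1*.

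**Figure D4:**
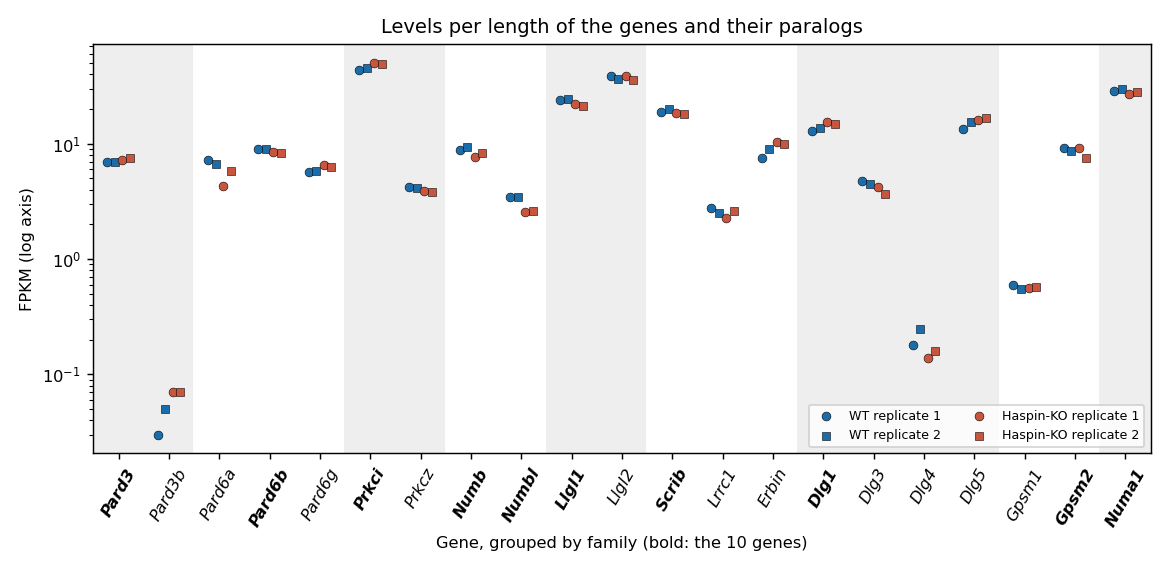
FPKM on a log axis (vertical) of the 10 genes (bold) and their relatives, grouped by family (horizontal, shaded by family), for each library; blue marks WT, red Haspin-KO, circles replicate 1 and squares replicate 2. *Prkci* lies highest of the 10 genes at 43.29 to 50.43 FPKM, *Pard3b* and *Gpsm1* lie far below *Pard3* and *Gpsm2*, and *Dlg2*, listed at 0, is left out.

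In the deposited annotation, no gene ontology term was shared by more than 4 of the 10 genes. *Dlg1*, *Pard3*, *Pard6b* and *Prkci* carried the term bicellular tight junction, which 0.631% of the 12688 annotated tested genes carried. *Gpsm2*, *Numa1*, *Pard3* and *Pard6b* carried apical part of cell (0.489%), and *Gpsm2*, *Numa1* and *Prkci* carried establishment of mitotic spindle orientation (0.166%). The 10 genes were chosen for polarity and spindle orientation, so these terms describe the choice and are not a result. Exons of *Numb*, *Llgl1*, *Gpsm2* and *Numa1* overlap an antisense gene over 4.24%, 1.32%, 5.19% and 1.01% of their exonic length, and those of *Numbl* overlap *Gm44641* on the same strand over 0.98%. The strand setting of the counting is not given in the sources used here, so reads in these stretches cannot be assigned.

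The rest of the pathway was followed in 125 further genes of 8 lists, of which 113 were tested. *Haspin*, the targeted gene, and *Wnt5a* were called lower, and no gene was called higher (2 of 113 against 2.50% of all tested genes). The study had already reported lower *Wnt5a* from its RNA-seq of Haspin-KO and WT cells. At an unadjusted p under 0.05, edgeR gave 9 genes higher and 8 lower, 15.0% of the 113 against 20.8% of all tested genes. The median log2 fold change of these 113 genes was 0.03, and that of all tested genes was 0.00.

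*Wnt5a*, a ligand of planar cell polarity and other non-canonical Wnt pathways, had 38 and 26 reads in WT and 1 read in each Haspin-KO library. The ratio of WT to Haspin-KO was 23.4, with a 95% interval from 6.22 to 197.3 that covers counting error only. Even in WT its level was low, at 0.205 ± 0.0212 FPKM (SD, n = 2 libraries). The call was that of edgeR, and DESeq2 gave no adjusted p for *Wnt5a*. The fibroblast markers given above were lower in the same libraries, and their part in this result was not tested. Of 23 tested planar polarity genes, which also include the receptors *Fzd3*, *Fzd6*, *Ror2* and *Ryk* and the core genes *Vangl1*, *Vangl2* and *Celsr1*, *Wnt5a* was the only gene called, and their median was -0.10.

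Of 21 tested genes of Numb and Notch fate determination, 15 had values above 0 and 6 below, and 0 were called. The receptor *Notch4* had the smallest p of the list, with 1.86 and 2.24 FPKM in WT and 2.88 and 3.21 FPKM in Haspin-KO. Its log2 fold change was 0.57 (standard error 0.14, unadjusted p = 0.00248, edgeR adjusted p = 0.0655). The other receptors, named after their values were seen, had log2 fold changes of 0.30 (*Notch1*, adjusted p = 0.123), 0.17 (*Notch2*, adjusted p = 0.365) and 0.42 (*Notch3*, adjusted p = 0.0787) in edgeR. These receptors have a GC content from 54.5% to 61.5%, and their values corrected for GC and length were 0.32, 0.19, 0.49 and 0.65, with *Notch3* at an adjusted p of 0.0487. Of the targets of Notch signaling, *Hes1* had a log2 fold change of -0.06 (adjusted p = 0.805) and *Hey1*, at 0.490 FPKM, one of -1.04 (adjusted p = 0.140).

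Of 32 tested genes of cortical spindle orientation, 16 had values above and 16 below 0, with a median of 0.00 and 0 calls in edgeR. The smallest p was that of *Dctn2*, a dynactin subunit, with 32.58 and 31.74 FPKM in WT and 27.87 and 26.13 FPKM in Haspin-KO and a log2 fold change of -0.26 (standard error 0.07, edgeR adjusted p = 0.0952). *Insc*, the adaptor that bridges PAR3 and GPSM2 in asymmetrically dividing cells, was near the limit of detection with 17, 8, 11 and 3 reads in WT replicates 1 and 2 and Haspin-KO replicates 1 and 2.

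Of 11 tested genes of the Par and aPKC list, 0 were called, and the smallest p was that of *Ect2*, a gene needed for cytokinesis (log2 fold change 0.20, edgeR adjusted p = 0.152). Of 9 in the Scribble group, 0 were called, with *Erbin* at 0.30 (adjusted p = 0.136). Of 5 in the Crumbs complex, 0 were called, with *Lin7c* at 0.32 (adjusted p = 0.0792). Corrected for GC and length, these 3 genes, at 41.3%, 39.3% and 38.7% GC, had log2 fold changes of 0.03, 0.07 and 0.09. Of 16 tested Par-1 and Par-4 kinases and 14-3-3 adaptors, 0 were called, and the smallest p was that of *Mark4* (log2 fold change -0.32, adjusted p = 0.246). Of the 7 mitotic kinases and their activators, *Haspin* was called lower and no other gene, with *Aurkb* at -0.18 (adjusted p = 0.228).

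**Figure D5:**
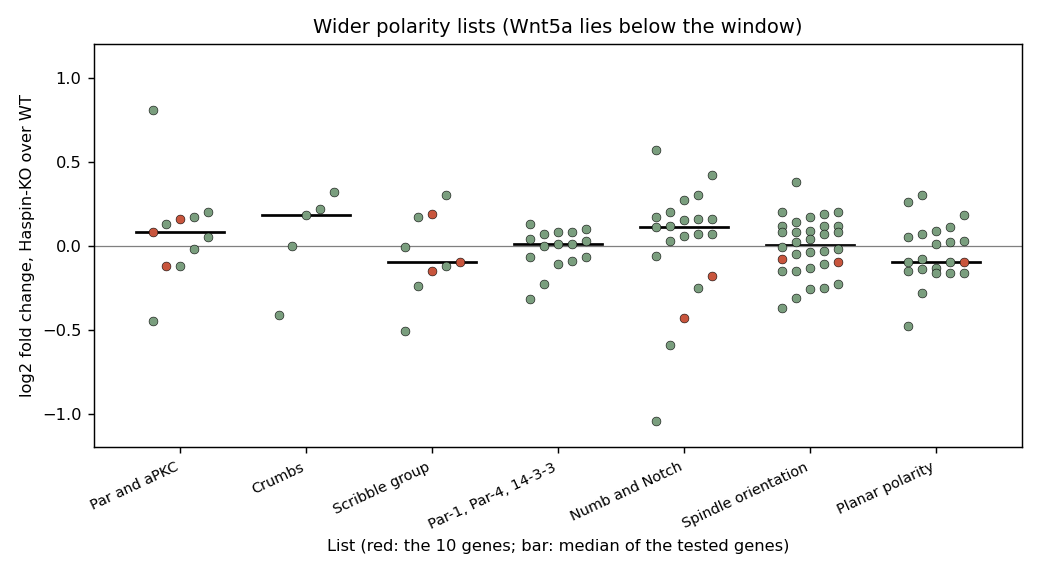
Log2 fold change of Haspin-KO over WT (vertical axis, limited to ±1.2) for the tested genes of 7 of the lists (horizontal axis), with the 10 genes in red, the other genes in green and the median of each list as a bar. The medians lie between -0.10 and 0.18, most genes lie within 0.5 of 0, and *Wnt5a* lies below the window.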

How the data were processed

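RNA-seq libraries of WT and Haspin-KO E14 mESCs (2 each) were used as deposited. Per the labels and the study's methods, the authors trimmed reads with Cutadapt (1.9.1), mapped them to mm10 with HISAT2 (2.0.1) and deposited raw read counts per gene. The authors tested differential expression with DESeq2, and HTSeq (0.6.1) is named in the submitters' processing notes without a role. The FPKM values deposited beside the counts equal the count over exonic length and library total in 100.0% of values (tolerance 0.006 FPKM). The multimapping rule, strand setting and annotation release are not given in the sources used here. Gene positions of the table equal those of GENCODE M21 (GRCm38) for the 10 genes.

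Counts were filtered (filterByExpr), normalized by TMM and tested on the whole table with the quasi-likelihood test of edgeR (4.0.16, R 4.3.3), with Benjamini-Hochberg adjustment over 15580 genes and no block. Standard errors were the log2 fold change over the square root of F, and 95% intervals used the total degrees of freedom. Alternatives were DESeq2 (1.42.0), limma (3.58.1) on log2(FPKM + 0.1) or log2(FPKM + 1) for genes at 0.5 FPKM or more in at least 2 libraries, other scalings and filters, thinning, leaving out each library, a fold change over 2, and the replicate number as a block. Added after the data were examined was a loess offset (span 0.3) for transcript GC content and exonic length, alone or with the block. The fits were also run on simulated counts with the same dispersion for every gene and without replicate or GC content effects. No result above rests on that simulation.

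The 10 genes and all lists were chosen with earlier results of these data known. Named were the 10 genes, their paralogs, list genes with an adjusted p under 0.05 or, in a list with none, the gene with the smallest p, *Haspin*, and the most counted markers of each list. *Insc*, *Hes1*, *Hey1*, *Aurkb*, the further Notch receptors and fibroblast markers at 0 were named after their values were seen. Intervals of counts cover counting error only. No protein sequences were used.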

Additional observations from a re-analysis of the deposited data

How the results depend on the processing

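Over all settings tried, the log2 fold changes of *Pard3*, *Prkci*, *Dlg1*, *Pard6b*, *Numb*, *Numbl*, *Llgl1* and *Numa1* kept their direction, *Pard6b* ending at -0.00 with the GC content and length correction. *Scrib* went to 0.00 with the GC content and length correction, alone or with the replicate block.

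Replicate numbers paired 1 WT with 1 Haspin-KO library, and no label ties a number to a shared preparation. The replicate differences of WT and Haspin-KO correlated with r = 0.338 across genes, which are not independent replicates. A replicate block gave 1775 genes higher and 1739 lower (22.6% of all tested genes), and called *Prkci* (0.16, adjusted p = 0.0385), *Dlg1* (0.19, adjusted p = 0.0161) and *Numbl* (-0.43, adjusted p = 4.1e-04), so 2 of the 10 genes higher and 1 lower. It called 12 genes of the wider lists higher and 9 lower. With the GC content and length correction added to the block, 1053 genes were higher and 1142 lower, 8 genes of the wider lists were higher, and of the 10 genes 1 was called, *Numbl* (-0.36, adjusted p = 0.00502). The correction alone gave 89 genes higher and 144 lower, 1 gene of the wider lists higher, and a median of -0.02 over the 10 genes with or without the block.

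Without a filter on low counts, 448 genes were higher and 724 lower, 3 and 4 of the wider lists, and 1 of the 10 genes, *Numbl* (-0.46). With limma on log2(FPKM + 0.1) or log2(FPKM + 1), 0 genes were called in either direction, against 2736 and 2772 at an unadjusted p under 0.05, and 0 of the wider lists were lower, *Haspin* having adjusted p of 0.115 and 0.102. A fold change over 2 left 51 higher and 78 lower. With at least 10 counts in every library or with DESeq2, 1 gene of the wider lists was lower, *Haspin*. The minimum of 10 counts left *Wnt5a* out, and DESeq2 gave it a log2 fold change of -4.54 without an adjusted p.

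With each library left out in turn, assuming that the lone library varies like the other group, 0 of the 10 genes were called. The log2 fold change of *Gpsm2* ranged from -0.24 to 0.03. All tested genes called ranged from 33 to 446 higher and from 61 to 432 lower, with 35 and 61 without WT replicate 1, 33 and 69 without WT replicate 2, 332 and 421 without Haspin-KO replicate 1, and 446 and 432 without Haspin-KO replicate 2. Those of the wider lists ranged from 0 to 3 higher and from 1 to 3 lower, and *Wnt5a* had an adjusted p of 0.0794 without WT replicate 1 and of 0.0551 without WT replicate 2.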
